A study of Mus musculus with 2 samples.

Results

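Nuclear genes for oxidative phosphorylation were examined in an open-chromatin map of mouse liver at embryonic day 11.5. The members are all protein-coding genes on the nuclear chromosomes whose symbol begins with Nduf, Uqcr, Atp5 or Cox4 to Cox8, or is Sdha, Sdhb, Sdhc, Sdhd, Cyc1 or Cycs. The GENCODE vM21 basic annotation held 96 such entries of 21938 protein-coding genes, with 95 different symbols, because Atp5o has a second entry. The tissue came from embryos of the strain B6NCrl, pooled over both sexes. DNase-seq, in which nuclei are cut with DNase I and the cut ends are sequenced, gave 2 libraries, numbered technical replicates 7 and 1. Both are technical replicates of biological replicate 1, so there was 1 biological sample, no other group and no test. The spread between the libraries is technical only.

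Oxidative phosphorylation couples electron transport through complexes I to IV of the inner mitochondrial membrane to ATP synthesis by complex V. A few subunits are encoded by mitochondrial DNA, and the nuclear genome encodes the rest together with the assembly factors. In cell and biochemical studies, many of these nuclear promoters bind NRF1, which recognises a GC-rich palindrome, or the ETS family factor GABP, also called NRF2. Complex IV is unusual in that several of its small subunits come in a general isoform and an isoform restricted to muscle, lung, testis or hypoxic cells.

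A promoter was called open where a peak of technical replicate 7 and a peak of technical replicate 1 overlapped each other by at least 1 bp and both lay within 1000 bp of the same transcript start. Peaks were ranked within each library by their highest cut density, and the rank percentile runs up to 100 for the densest peak. The lists differ in length, with 86036 peaks in technical replicate 7 and 42422 in technical replicate 1. Of the 90 open members, 75 ranked higher in technical replicate 7 and 15 in technical replicate 1. All open genes shifted the same way, with median ranks of 92.1 in technical replicate 7 and 82.8 in technical replicate 1, against 95.6 and 88.3 for members. In a bulk sample, an open promoter in fewer cells and a less open promoter in all cells cannot be told apart. Of 5 hepatoblast marker genes, Cebpa and Foxa3 were open by this rule, the Foxa3 peak with its summit 763 bp upstream and nearer to the start of Sympk, Afp and Hnf4a had a peak in technical replicate 7 only, and Alb had none. Of 5 erythroid marker genes, Tfrc, Klf1 and Gata1 were open, with mean rank percentiles over both libraries of 99.5, 52.1 and 30.7. The Klf1 summit lay 626 bp upstream. Hbb-bs had a peak in technical replicate 7 only and Hbb-y had none, and the progenitor marker Kit was open. Actn2, Myod1, Snap25, Krt10 and Dazl, which mark other tissues, were open too, whereas Ckm had no peak and Neurod1 had peaks in technical replicate 7 only. Promoter peaks of these genes therefore do not separate liver from other tissues in these lists, and the share of each cell type was not tested.

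The sites below carry the motif results described further on. They are NRF1 and ETS matches inside the strongest shared promoter peak that lie under footprints of both libraries, a footprint being a short stretch protected from cutting. There were 21 members with such an NRF1 match and 3 with such an ETS match, 22 members in all. The 12 with the highest peak ranks are shown, all with NRF1 matches, and the ETS sites, which fell outside that rule, were added after their values were seen. Each run has 30 bases from the RefSeq genome GRCm38.p6, the mm10 build, 5′ to 3′ on the strand of the gene, with the match in capitals. The NRF1 motif was GCGCANGCG, and neighbouring matches that overlap, as in the full palindrome, were joined.
Cox6a1, chr5:115349057-115349086: acggataaagtGCGCAGGCGctggagttcc
Atp5g2, chr15:102671070-102671099: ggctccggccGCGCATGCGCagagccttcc
Cycs, chr6:50566612-50566641: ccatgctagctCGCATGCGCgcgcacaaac
Ndufa13, chr8:69903169-69903198: ctcgcccttcgCGCGTGCGCcgccctggct
Sdha, chr13:74350277-74350306: aggggcgtgttGCGCAGGCGcagaatcttc
Ndufa8, chr2:36049349-36049378: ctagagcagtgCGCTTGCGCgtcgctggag
Atp5mpl, chr12:111967053-111967082: ggcgctgtggtGCGCAGGCGcggaaggccg
Ndufb4, chr16:37654429-37654458: gccttgtgcgcGCGCAGGCGcacttcctga
Ndufb10, chr17:24724407-24724436: gtcacctttctGCGCAGGCGtagaggtccc
Ndufa6, chr15:82354249-82354278: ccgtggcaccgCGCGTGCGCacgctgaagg
Ndufaf4, chr4:24897960-24897989: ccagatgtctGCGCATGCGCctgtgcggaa
Atp5c1, chr2:10080431-10080460: cctgagctcccGCGCACGCGcactgagtcc
The ETS motif was CCGGAAGT, and these are its 3 matches under footprints of both libraries.
Ndufs3, chr2:90904703-90904732: tgcacatttccACTTCCGGtccgtgccctt
Atp5h, chr11:115419940-115419969: ccaaggagagaACTTCCGGcaactctcttc
Uqcr11, chr10:80406869-80406898: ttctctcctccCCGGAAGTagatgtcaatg
Of these 15 sites, 8 lie in an annotated 5′ UTR of their gene and 7 lie upstream of it. The Ndufa13 site, 625 bp before the Ndufa13 start, lies in an annotated UTR of the neighbouring gene Tssk6.

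Nearly all members had an open promoter. A shared peak was found at 90 of the 96 entries, or 93.8%, against 12996 of all 21938 protein-coding genes, or 59.2%. Technical replicate 7 alone had a peak at 91 entries, against 14335 genes or 65.3%, and technical replicate 1 alone at 90, against 13131 genes or 59.9%. All 7 core subunits of complex I, its 29 accessory subunits and its 8 assembly factors were open, as were all 4 subunits of complex II, all 9 of complex III and the cytochrome c gene Cycs. Complex V had 17 of 18 entries open and complex IV had 15 of 20. The complex V entry without a peak is the second Atp5o entry, whose 5′ end at chr16:91926982 lies 3′ of the canonical 5′ end at chr16:91931687. The 5 others all encode restricted isoforms of complex IV.

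The open promoters ranked somewhat above those of all genes. The median mean rank percentile over both libraries was 91.3 for the 90 open members and 87.6 for the 12996 open genes. The middle 50% of members lay between 86.7 and 95.5, and that of all open genes between 73.2 and 94.0. A mean rank of 90 or more was reached by 55 of the 90 open members, or 61.1%, against 42.2% of open genes. Median densities, in the authors' signal units, were 4.04 in technical replicate 7 and 3.23 in technical replicate 1 for members, against 3.02 and 2.71 for open genes. The 77 cytosolic ribosomal protein genes, another set of widely used genes, were all open and had a median mean rank of 93.5 and a range of 75.7 to 99.5.

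**Figure D1:**
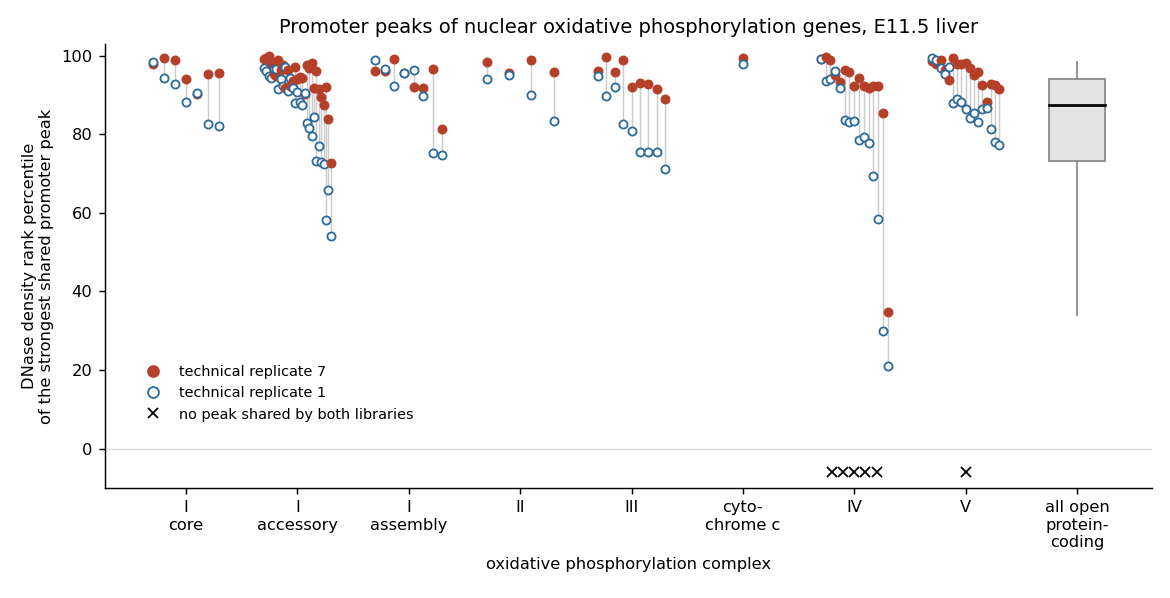
Rank percentile of the strongest shared promoter peak of each open member (vertical axis) by complex, with technical replicate 7 as filled circles and technical replicate 1 as open circles joined by a line. Crosses mark entries with no shared peak, 5 in complex IV and 1 in complex V, and the box shows the 5th, 25th, 50th, 75th and 95th percentiles of the mean rank over all 12996 open genes, with a median of 87.6.

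Complex I, which takes electrons from NADH, had a median mean rank of 91.2 in its catalytic core, near the 91.3 of all open members. The medians of its accessory subunits and assembly factors were 92.5 and 94.9. Ndufv2, an iron-sulfur subunit of the NADH-oxidising module, had densities of 6.23 and 3.98 in technical replicates 7 and 1 and a mean rank of 96.9. Ndufs8, another iron-sulfur subunit, was the lowest core member at 88.8, with densities of 4.07 and 2.64. All 7 core members lay above the median of all open genes. The accessory subunits, which surround the core and are needed for assembly and stability, covered a wider range. Ndufa11 and Ndufa13, both subunits of the membrane arm, headed them with mean ranks of 98.0 and 97.9. Their peak summits lay 748 and 765 bp upstream of the nearest start of the gene itself, and both summits were nearer to the start of another gene. Ndufv3 had the highest density of the accessory subunits in technical replicate 7, 8.80, and 4.07 in technical replicate 1. The lowest accessory member was Ndufb11, an X-linked subunit of the membrane arm, with densities of 1.07 and 1.34 and a mean rank of 63.4. Among the assembly factors, which help to build complex I and are not part of it, Ndufaf8 had a mean rank of 97.5, Ndufaf2 96.3 and Ndufaf1 78.1.

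Complex II is the succinate dehydrogenase that links the citric acid cycle to the respiratory chain, and its genes are all nuclear. Sdha, the flavoprotein that oxidises succinate, had densities of 5.24 in technical replicate 7 and 3.95 in technical replicate 1, with a mean rank of 96.3. Sdhb, the iron-sulfur subunit, had 5.61 and 3.41 and a mean rank of 94.5. The membrane anchors Sdhc and Sdhd had mean ranks of 95.3 and 89.6. All 4 ranked above the median of open genes.

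Complex III, which passes electrons on to cytochrome c, had the lowest median of the complexes, 86.4, with a range of 80.1 to 95.5. Uqcrfs1, the Rieske iron-sulfur protein, was highest at 95.5, with densities of 4.22 and 4.09 in technical replicates 7 and 1. Uqcrq, a small subunit, followed at 94.6 with the densities 6.29 and 3.37. Cyc1, which carries the haem of cytochrome c1, had the densities 2.88 and 2.14 and a mean rank of 83.5. Uqcrb, a small subunit at the ubiquinone site, was lowest at 80.1, with 2.31 and 1.92. Both values of Uqcrb lay below the medians of all open genes, which were 3.02 and 2.71. Cycs, the somatic cytochrome c, ranked far higher at 98.7 with the densities 6.09 and 4.78. Its testis-specific relative Cyct, which the symbol rule does not take in, had no peak in either library.

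In complex V, the ATP synthase, Atp5g2 was highest with a mean rank of 99.1 and densities of 5.50 and 5.76 in technical replicates 7 and 1. It encodes the c subunit of the rotor, as do Atp5g1 and Atp5g3, which had mean ranks of 93.7 and 87.1. Atp5f1, the b subunit of the peripheral stalk, had the densities 4.93 and 5.20 and a mean rank of 98.3, but its summit lay 719 bp inside the gene and 11 bp from the start of Wdr77. Atp5c1, the gamma subunit of the central stalk, had 5.06 and 3.29 and a mean rank of 93.5. Atp5l, the membrane subunit g, was lowest at 84.3 with 2.85 and 2.26. The 17 open entries of complex V spanned 84.3 to 99.1 and none fell as low as the lowest accessory subunits of complex I.

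Complex IV, cytochrome c oxidase, held the extremes. Cox6a1 had the highest mean rank of all members, 99.2, with densities of 5.77 in technical replicate 7 and 5.51 in technical replicate 1. Cox5b followed among the complex IV genes at 96.6, with 6.35 and 3.87. Cox6c, with no other isoform in the list, had 3.09 and 2.41 and a mean rank of 85.9. The restricted isoforms were open at 3 of 8 genes, against 7 of 7 for the general isoforms and 59.2% of all genes.

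The muscle isoforms of this complex were not alike. Cox6a2 and Cox8b, both known from heart and skeletal muscle, had no peak within 1000 bp of a start in either library, the longer lists included, and no hotspot there. Cox7a1, the third muscle isoform, had a density of 3.10 in technical replicate 7 and 1.83 in technical replicate 1, against 4.15 and 2.75 for its general counterpart Cox7a2. Its mean rank was 80.8 and that of Cox7a2 was 89.5. The muscle marker Ckm had no peak, while Actn2 and Myod1 had shared peaks with mean ranks of 76.8 and 29.8; their part in the Cox7a1 peak was not tested. Of the testis isoforms, Cox7b2 and Cox8c had no peak in either library. Cox6b2, the third testis isoform, was open with 2.95 and 2.30, against 3.69 and 2.36 for the general Cox6b1. The mean ranks of Cox6b2 and Cox6b1 were 84.8 and 86.5. Cox6b2 ranked slightly lower in each library, with 91.8 against 94.4 in technical replicate 7 and 77.8 against 78.6 in technical replicate 1. The germ cell marker Dazl was open with a mean rank of 82.8, and its part in the Cox6b2 peak was not tested.

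Cox4i2, best known from lung and from the response to hypoxia, had a weak promoter peak with densities of 0.489 and 0.859, the lowest of any open member, and a mean rank of 27.9. Its general counterpart Cox4i1 had 3.87 and 4.33 and a mean rank of 95.6, so both libraries gave Cox4i2 the far lower density. Around Cox4i2 there were 14 further shared peaks within 50 kb that lay over 1 kb from any start, the most of any member, against a median of 1 for the members and 1 for all genes. These peaks were counted by distance alone and were not assigned to Cox4i2 or to a neighbouring gene. Ndufa4l2, the hypoxia-inducible relative of Ndufa4, had a peak in technical replicate 7 alone, with a density of 0.829. A hotspot, a broader region of raised cutting, covered the Ndufa4l2 promoter in both libraries, with −log10 values of the false discovery rate of 10.9 in technical replicate 7 and 5.37 in technical replicate 1. Ndufa4 itself had densities of 3.05 and 2.77. The general isoforms Cox7b, which is X-linked, and Cox8a had mean ranks of 57.7 and 96.6.

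**Figure D2:**
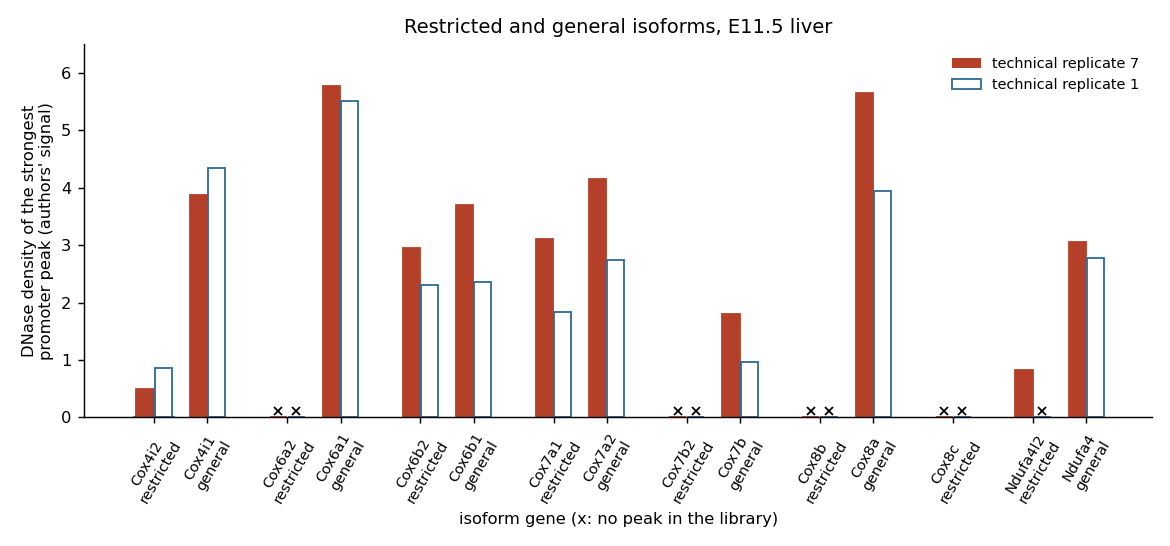
Highest cut density of the strongest promoter peak (authors' signal, vertical axis from 0) for each restricted isoform and, to its right, its general counterpart, in technical replicate 7 (filled bars) and technical replicate 1 (open bars). Crosses mark libraries without a peak, both libraries of Cox6a2, Cox7b2, Cox8b and Cox8c and technical replicate 1 of Ndufa4l2, and Cox8c stands beside the Cox8 pair without a counterpart of its own.

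The restricted and general isoform promoters did not overlap in CpG content relative to their base composition. This measure, observed over expected CpG within 500 bp of the 5′ end, had a median of 0.329 and a range of 0.186 to 0.467 for restricted isoforms, and a median of 0.777 and a range of 0.482 to 0.997 for general ones. The 88 members other than restricted isoforms ranged from 0.136 to 1.03, so low values were not particular to restricted isoforms. For the members as a whole the median was 0.724, against 0.553 for all genes and 0.725 for all open genes. The 140 bases before the 5′ end are shown for 2 pairs that lie at opposite ends in density, from the same genome and on the strand of the gene, with NRF1 and ETS matches in capitals. No annotated exon lies in any of these runs.
Cox6a2, chr7:128206388-128206527: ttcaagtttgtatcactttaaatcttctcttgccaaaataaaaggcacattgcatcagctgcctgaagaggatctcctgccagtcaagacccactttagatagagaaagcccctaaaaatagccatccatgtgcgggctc
Cox6a1, chr5:115348982-115349121: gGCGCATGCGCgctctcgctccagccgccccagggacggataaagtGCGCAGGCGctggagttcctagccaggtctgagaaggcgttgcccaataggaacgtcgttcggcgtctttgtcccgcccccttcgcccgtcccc
Cox8b, chr7:140900447-140900586: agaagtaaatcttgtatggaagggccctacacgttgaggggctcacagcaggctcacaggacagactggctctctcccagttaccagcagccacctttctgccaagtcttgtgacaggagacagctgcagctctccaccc
Cox8a, chr19:7217617-7217756: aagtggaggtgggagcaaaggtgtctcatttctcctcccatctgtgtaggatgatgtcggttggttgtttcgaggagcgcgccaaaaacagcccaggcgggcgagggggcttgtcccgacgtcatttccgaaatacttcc
The Cox6a2 run holds 1 CpG and the Cox6a1 run holds 16. The Cox8b run holds 1 CpG and the Cox8a run holds 9. The capitals in the Cox6a1 run are its 2 NRF1 sites, both under footprints of both libraries. An ETS match of Cox8a at chr19:7217615-7217622 crosses the 3′ end of the Cox8a run and so is not in capitals.

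The X-linked members were low together. Ndufa1, a small accessory subunit of complex I, had densities of 1.65 and 1.69 in technical replicates 7 and 1 and a mean rank of 74.8. Ndufb11 and Cox7b, with mean ranks of 63.4 and 57.7, were lower still, and Cox7b differed most between libraries of all members, with ranks of 85.4 and 29.9. The 87 open autosomal members had a median of 92.2. X-linked genes as a whole ranked lower too. The median mean rank was 66.7 for 396 open X-linked genes and 88.1 for 12596 open autosomal genes. The tissue was pooled over both sexes.

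**Figure D3:**
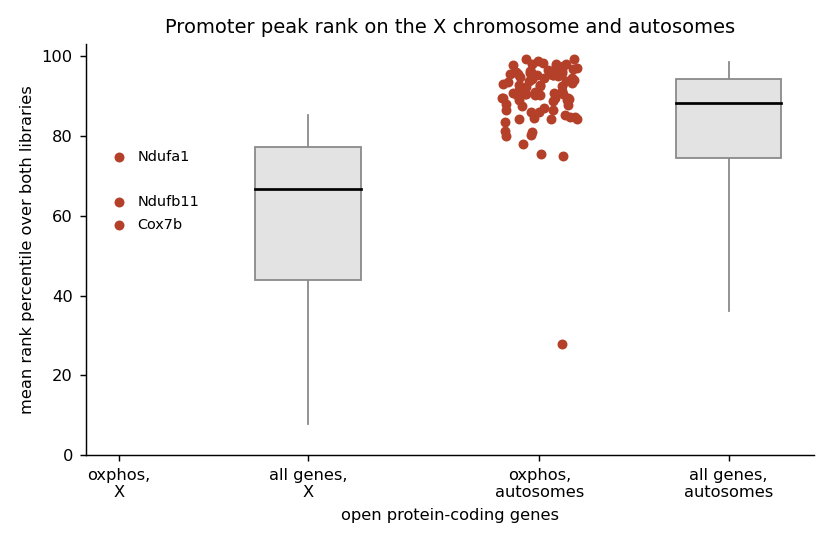
Mean rank percentile over both libraries (vertical axis) of the 3 open X-linked members, all open X-linked genes, the 87 open autosomal members and all open autosomal genes. Points are members and boxes show the 5th, 25th, 50th, 75th and 95th percentiles of all genes, with medians of 66.7 on X and 88.1 on autosomes.

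Peaks at the members lay close to the start and were slightly narrower than those of all open genes. The median peak width in technical replicate 7 was 251 bp for members and 270 bp for all open genes. In technical replicate 1 it was 369 bp and 388 bp. Over all peaks of each list the medians were 258 bp and 303.5 bp, so the members' peaks in technical replicate 1 were wider than its typical peak. The median distance of the summit from the nearest start was 36 bp for members and 59 bp for all open genes, and 75 of 90 members, or 83.3%, had it within 100 bp, against 67.8% of open genes. For 4 members it lay over 500 bp away, namely Ndufa11, Ndufa13, Atp5f1 and Atp5j. Ribosomal protein genes were similar, with 87.0% within 100 bp.

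Many members shared their promoter region with a gene on the other strand. A protein-coding start on the opposite strand lay within 1000 bp at 31 of the 96 entries, or 32.3%, against 10.5% of all genes. All 31 of these members were open, but so were 2163 of the 2304 such genes among all protein-coding genes. Among open genes alone, the shares with such a neighbour were 34.4% for members and 16.6% for all. Complex I assembly factors had such a neighbour in 4 of 8 cases, complex II in 3 of 4 and complex IV in 1 of 20. The partners, named here after they were seen, were of several kinds, such as the mitochondrial import factor gene Timm8b beside Sdhd, the mitochondrial ribosomal protein gene Mrpl36 beside Ndufs6, the cytosolic ribosomal protein gene Rps28 beside Ndufa7 and the translation factor gene Eef1b2 beside Ndufs1. Atp5j, coupling factor 6 of the ATP synthase, lies beside Gabpa, which encodes the DNA-binding subunit of GABP. The strongest Atp5j peak had densities of 4.15 and 2.75, with its summit 24 bp from the Gabpa start and 554 bp inside Atp5j. In 16 of the 90 open members, or 17.8%, the summit was nearer to another gene's start than to the member's own, against 9.17% of open genes, and for these the peak cannot be given to 1 gene. The 31 members with such a neighbour had a median mean rank of 91.5, and the 59 open members without one had 90.8.

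NRF1 matches were found in a larger share of the members' peaks than of those of open genes, a difference described here without a test. In the 150 bp at the middle of the strongest shared promoter peak, GCGCANGCG on either strand was found in 26 of 90 open members, or 28.9%, against 12.8% of open genes and 11.7% of ribosomal protein genes. In the window from 250 bp before to 50 bp after the 5′ end it was found in 18 of 96 entries, or 18.8%, against 8.3% of all genes, open or not. Among open genes alone, with this window set at the start nearest the peak, the difference was smaller. There it was found in 20 of 90 open members, or 22.2%, against 14.4% of open genes. By complex, the peaks of 9 of 17 open complex V entries held a match, as did 7 of 29 accessory subunits, 2 of 8 assembly factors and none of 7 core subunits of complex I. The count was 2 of 4 for complex II, 2 of 9 for complex III and 3 of 15 for complex IV. Over the whole peak there were 37 NRF1 sites in 27 members, of which 21 members held 1 site, 3 held 2, 2 held 3 and Ndufa13 held 4. The median mean rank was 92.4 for the 26 open members with a match at the peak middle and 91.0 for the 64 without, against 92.2 and 86.5 for all open genes with and without one.

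ETS matches were few, and their share lay below or above the background depending on the window. CCGGAAGT on either strand was found at the peak middle of 5 of 90 open members, or 5.56%, against 7.03% of open genes and 15.6% of ribosomal protein genes. In the window at the 5′ end it was found in 6 of 96 entries, or 6.25%, against 4.7% of all genes. Those 6 were Ndufs1, Uqcr11, Uqcrh, Uqcrq, Cox8a and Atp5h. With the shorter letters CCGGAAG in that window, 18 entries or 18.8% had a match, against 10.8% of all genes. In the same window at the start nearest the peak, the longer letters were found in 7 of 90 open members, or 7.78%, against 8.26% of open genes. With 5 to 7 members holding the longer letters in these windows, a moderate difference in either direction was not detectable. A match to these letters is a description of sequence and says nothing of which factor binds there.

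Footprints covered the NRF1 sites of the members more often than they covered those of all genes. Of the 37 sites in the members' peaks, 30 or 81.1% overlapped a footprint of technical replicate 7, against 63.7% of 2295 sites in all open promoters. In technical replicate 1 it was 31 or 83.8%, against 74.6%, and in both libraries together 28 or 75.7%, against 57.6%. Footprints also covered more of the members' peak bases in general, 15.0% and 25.4% in technical replicates 7 and 1, against 11.0% and 21.8% for all open genes. The 2 lists were made by different processing, so their shares are not comparable with each other. The median distance of an NRF1 site from the nearest start was 11 bp upstream in members and 38 bp upstream in all open genes. Of the 10 ETS sites in the members, 3 overlapped a footprint of technical replicate 7 and 7 one of technical replicate 1, and in all open genes 42.5% and 63.2% of 1120 sites did. Both ETS sites of Cox8a lay under footprints of technical replicate 1 only.

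All 90 open members had at least 1 footprint within 1000 bp of a start in each library. The shares over all open genes were 94.2% in technical replicate 7 and 99.8% in technical replicate 1. Member promoters held a median of 3 footprints from technical replicate 7 and 7 from technical replicate 1, against 3 and 8 for all open genes. In bins of 20 bp, footprints of technical replicate 7 covered at most 24.5% of the bases of members, in the bin that begins 40 bp before the start, and at most 14.9% of those of all open genes. In technical replicate 1 the highest values were 34.4% for members and 27.3% for all open genes, both in the bin that begins 20 bp before the start.

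**Figure D4:**
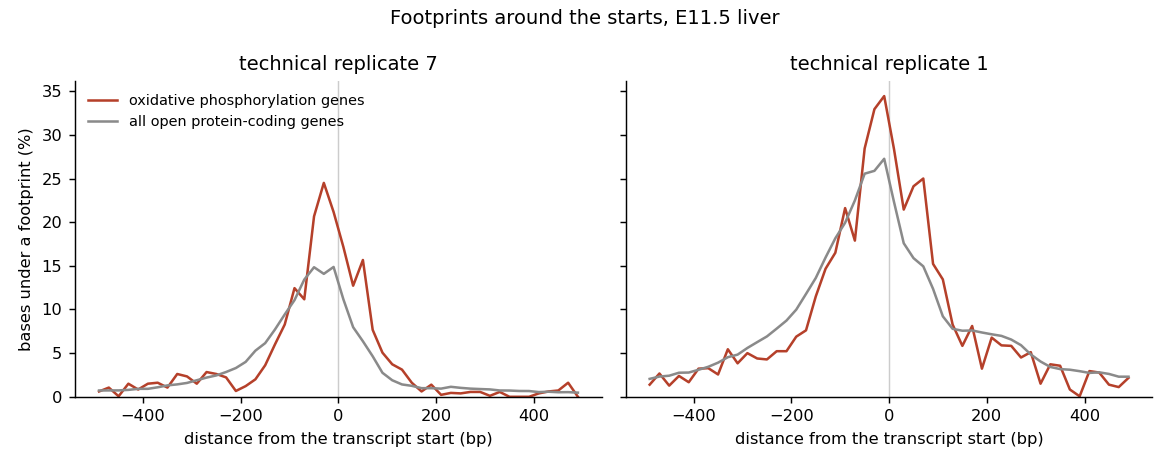
Share of bases under a footprint (vertical axis, %) in bins of 20 bp around the start nearest to the strongest shared peak, for the 90 open members and all 12996 open genes, in technical replicate 7 (left) and technical replicate 1 (right). The member curve peaks at 24.5% in technical replicate 7 and 34.4% in technical replicate 1, above the 14.9% and 27.3% of all open genes.

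Among the other motifs searched, YY1 and SP/KLF matches differed most from the background in percentage points. The YY1 letters AAGATGG were found at the peak middle of 12 of 90 open members, or 13.3%, against 3.55% of open genes and 5.19% of ribosomal protein genes. These letters contain ATG and can be a translation start. Of 26 matches in the members' whole peaks, 16 had their ATG at an annotated start codon, against 309 of 912, or 33.9%, in all open genes. Leaving those out, 10 of 90 members, or 11.1%, held a match elsewhere in the peak, against 5.09% of open genes. Footprints of both libraries covered 5 of the 26 matches, or 19.2%, against 12.2% of the 912, and 3 of the 5 lay away from start codons. The SP/KLF letters GGGGCGGGG were found in 6 of 90 members, or 6.67%, against 19.1% of open genes, and in 6.49% of ribosomal protein genes. The NFY letters CCAAT were found in 28.9% of members and 29.4% of open genes, and the CREB letters TGACGTCA in 4.44% and 3.44%. The ERR letters TCAAGGTCA occurred in 2 members, Sdhd and Atp5g3, and in 9 of 12996 open genes, and neither of the members' sites lay under a footprint. The GATA letters AGATAA were found in 1 member, or 1.11%, against 1.48% of open genes, and the TATA letters TATAAA in 2, or 2.22%, against 1.88%. In the members, no match of 1 motif overlapped a match of another.

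**Figure D5:**
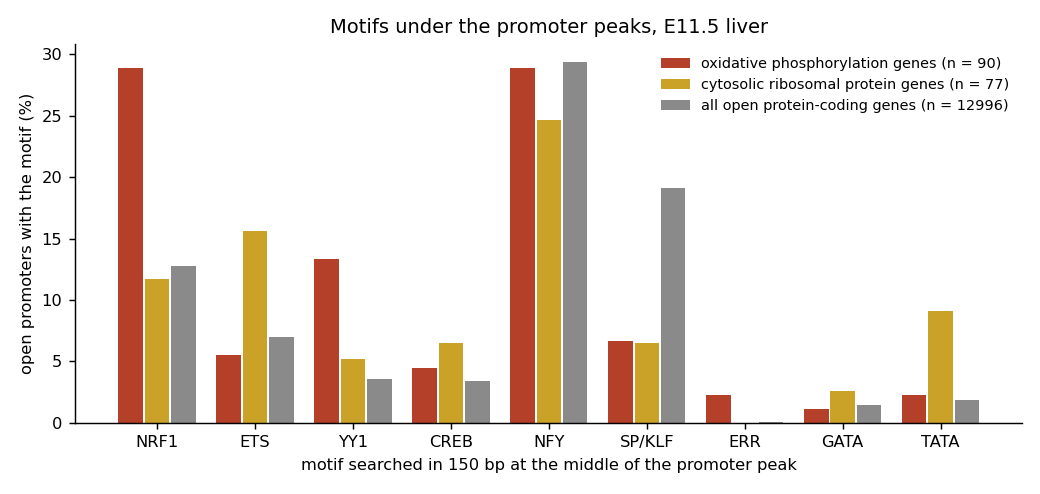
Share of open promoters (vertical axis, %) with each motif in the 150 bp at the middle of the strongest shared promoter peak, for oxidative phosphorylation genes, cytosolic ribosomal protein genes and all open protein-coding genes. The NRF1 bars stand at 28.9%, 11.7% and 12.8%, and the SP/KLF bars at 6.67%, 6.49% and 19.1%.

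Genes that serve the same complexes but fall outside the symbol rule were mostly open too. Of 42 further assembly and insertion factors, 41 were open, with a median mean rank of 94.0. Sdhaf1, an assembly factor of complex II, had no peak in the shorter list of either library. The longer list of technical replicate 7 held 1 peak there, and that library had 1 footprint. A hotspot reached within 1000 bp of the Sdhaf1 start in both libraries. Its −log10 values of the false discovery rate were 119 in technical replicate 7 and 24.95 in technical replicate 1. The Sdhaf1 region therefore showed raised cutting without meeting the rule for an open promoter. Pet100, a complex IV assembly factor, was highest at 99.5 and Atpaf1, an ATP synthase assembly factor, was the lowest open one at 69.1. All 17 regulators and mitochondrial gene expression factors were open, with a median of 93.2. Of all protein-coding genes, 59.2% were open, with a median mean rank of 87.6. Nrf1 itself had a mean rank of 92.1, Gabpa 89.6 and Gabpb1 93.0. Esrra, which encodes the nuclear receptor ERR alpha, was highest, with densities of 7.67 and 7.24 in technical replicates 7 and 1. Its coactivator Ppargc1a was lowest at 26.5, with densities of 0.413 and 0.980. The Ppargc1a summit lay 847 bp downstream of the nearest start. Atpif1, the inhibitor of the ATP synthase, had a mean rank of 90.4.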

How the data were processed

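DNase-seq peaks, hotspots and footprints of 2 technical replicates of 1 liver sample were used as deposited. Per the file headers, each peak has a signal value, its maximum cut density, and each list belongs to 1 library. Each deposited hotspot has the −log10 of a false discovery rate, per the file headers. The footprint list that the authors deposited for technical replicate 1 has 0.01 in every row, taken here for a p-value or false discovery rate limit, and that of technical replicate 7 holds positions only. For the tools that aligned reads and called peaks and footprints, names were not given in the sources used here. Coordinates are on mm10, per the labels. Depth is not given as a read count. Each library had a shorter and a longer peak list, and the shorter was used.

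Starts came from the GENCODE vM21 basic annotation, sequence from RefSeq GRCm38.p6 (pysam 0.24.0, Python 3.11.15). The strongest shared promoter peak of a gene is the one with the highest mean density rank. Hypotheses were not tested and no p-value was computed, since there is 1 biological sample. The overlap, rank and motif functions were tested on simulated data. The members and lists were chosen with earlier results of these data known. Genes named with full values are, in each complex, the 2 highest and the lowest by mean rank, members without a shared peak, all general and restricted isoforms, and Cycs, Cyc1, Sdhb, Cox5b, Cox6c, Atp5c1 and Uqcrb; others were chosen after their values were seen. Of the genes this rule takes, 1 is left out of the text. Windows, peak lists, overlap rules, motif letters and leaving out each library were varied.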

Additional observations from a re-analysis of the deposited data

How the results depend on the processing

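Of 56 recomputed values for 9 results, 46 stayed within the limits set, but these limits were unlike. The background share had to stay in its 95% confidence interval, whereas counts could change by a wider fixed ratio. For the median rank, the limit was the standard deviation of the 2 library medians. Leaving out a library could therefore hardly pass it. Open members, already nearly all, could not pass their limit upward. The 46 is thus no measure of stability. The number of open members ranged from 88 to 91 over all settings, and the open restricted isoforms from 2 to 4. With a 500 bp window Atp5f1 and Ndufa13 were no longer open. The background moved more. The share of open protein-coding genes, 59.2%, was 58.1% with a 500 bp window, 61.1% with a 2500 bp window, 56.3% with the 5′ end only, 61.7% with the longer peak lists and 49.2% with the stronger 50% of shared peaks. Leaving out each library in turn gave 59.9% to 65.3% for that share, 90 to 91 open members, 3 to 4 open restricted isoforms and a median rank of 88.3 to 95.5. Motif counts depended on the letters. The members with an NRF1 motif numbered 18, and 8 with the stricter GCGCATGCG, against 2.48% of all genes. Members with an ETS motif numbered 6, then 11 within 500 bp of the 5′ end against 7.13% of all genes, 18 with the looser CCGGAAG against 10.8% of all genes, and 0 with the stricter ACCGGAAGT against 1.28%. The settings "window at the start nearest the peak", "shared peak nearest to a start", "1 entry per symbol" and "only the peak of technical replicate 7 in the window" were chosen after seeing the data. The causes were not tested. No paired analysis was possible because there is 1 group. With 1 biological sample the spread between animals is unknown. The depth of the libraries is not given as a read count, and its part in weak peaks such as that of Ndufa4l2 was not tested.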
